A study of Mus musculus with 30 samples.

Results

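The sterol and fatty acid synthesis genes are 33 of the 55487 genes counted in 23 single mouse embryos, and all 33 were found in the count tables. They were selected on measured values of these same embryos, namely their levels by genotype and stage, so every difference between genotypes or stages given for them here is a description and supports nothing further. DIS3 is a ribonuclease of the RNA exosome, the complex that trims and degrades RNA. The embryos came from hormonally stimulated *Dis3* het females mated with *Dis3* het males, so that wild-type, het and null embryos all had a het mother. The null allele carries a CRISPR-Cas9 deletion of a run of exons, and each embryo was genotyped from its own leftover DNA. The labels do not say which embryos share a litter, so p-values measure only the spread between these embryos. At embryonic day 2.5 (E2.5) there were 6 wild-type embryos, 2 het embryos and 4 null embryos. At E2.75 there were 3 wild-type embryos, 5 het embryos and 3 null embryos. A further experiment mapped binding of the transcription factor POU6F1 in mouse embryonic stem cells derived from *Dis3* flox/flox blastocysts and transfected with *Pou6f1-mCherry*, in 2 replicates. That cell line expresses POU6F1 from a plasmid and is not a preimplantation embryo, which limits it as a model.

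Cholesterol is built from acetyl-CoA through mevalonate, isoprenoid pyrophosphates and squalene, and fatty acids are built from the same acetyl-CoA through malonyl-CoA. The transcription factors SREBP2 and SREBP1, encoded by *Srebf2* and *Srebf1*, switch on genes of both pathways when sterols in the endoplasmic reticulum run low. SCAP escorts them to the Golgi for cleavage, and INSIG1 holds SCAP back when sterols are plentiful. The genes fall by role into 8 of the mevalonate and isoprenoid steps, 11 of the steps from squalene to cholesterol, 5 of SREBP regulation and sterol transfer and 9 of fatty acid synthesis and desaturation.

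Promoter sequences, from RefSeq on GRCm38.p6, were found for 26 of the 33 genes, in windows from 250 bases before to 50 bases after the gene start. The search covered both strands for the sterol regulatory element (SRE, searched as TCACNCCAC), the CCAAT box (CCAAT), the GC box (GGGCGG) and the E-box (CACGTG). The SRE letters stood in the window of 1 of the 26 genes, *Hmgcs1*, and in 1.44% of the 27025 genes of the table. A CCAAT box was present in 21 of 26 (80.8%), against 41.1% of all genes in the table and 43.7% of the 8895 protein-coding genes that were tested in the embryos and have a window. A GC box was also present in 21 of 26 (80.8%), against 38.2% and 69.2%. An E-box was present in 5 of 26 (19.2%), against 8.09% and 12.1%. The stretches of 120 bases printed here lie upstream of the start of 5 genes to which the results return. Each was placed to hold the most motif matches, and nearest the start among equals. They are written 5′ to 3′ on the strand of the gene, with every match of the 4 motifs in capitals (ATTGG and CCGCCC are the CCAAT and GC boxes of the other strand), and all 120 bases of each lie within a POU6F1 peak described further on.
Hmgcs1: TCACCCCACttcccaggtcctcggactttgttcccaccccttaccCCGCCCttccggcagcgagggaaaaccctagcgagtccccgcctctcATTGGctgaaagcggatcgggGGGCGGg
Lss: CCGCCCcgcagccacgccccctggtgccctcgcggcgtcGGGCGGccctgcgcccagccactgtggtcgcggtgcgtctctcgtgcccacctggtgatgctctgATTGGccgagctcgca
Srebf2: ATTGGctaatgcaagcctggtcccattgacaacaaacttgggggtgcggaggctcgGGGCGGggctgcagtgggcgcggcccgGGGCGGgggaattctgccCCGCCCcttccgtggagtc
Insig1: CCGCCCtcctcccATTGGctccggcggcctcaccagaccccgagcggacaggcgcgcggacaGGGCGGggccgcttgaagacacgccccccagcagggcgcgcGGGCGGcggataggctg
Fasn: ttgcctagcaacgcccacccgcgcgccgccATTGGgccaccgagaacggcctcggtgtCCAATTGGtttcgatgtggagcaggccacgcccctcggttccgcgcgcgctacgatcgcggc

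The *Hmgcs1* stretch is chr13:119690214-119690333 on the plus strand and opens with the SRE letters. The *Lss* stretch is chr10:76531439-76531558 on the plus strand. The *Srebf2* stretch is chr15:82147134-82147253 on the plus strand and holds 3 GC boxes. The *Insig1* stretch is chr5:28071183-28071302 on the plus strand and also holds 3. The *Fasn* stretch is chr11:120824548-120824667 on the minus strand and holds 3 CCAAT boxes, of which the last 2 overlap. A match is a description of these letters and not evidence of a bound site. Other spellings and positions outside the windows were not searched, so the lack of a match does not show the lack of a site.

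The libraries held from 1690192 to 14015980 counts on genes (median 8030848), and 2 of the 3 null libraries at E2.75 were the shallowest, at 1690192 and 1914128. Levels are given as CPM, counts scaled to 1000000 per library after TMM normalization. *Dis3* itself was at 0 to 21.5 CPM in null embryos, 30.4 to 59.2 in het embryos and 18.0 to 147 in wild-type embryos. Wild-type replicate 6 of E2.5, by its label, was the lowest wild-type library, above the null embryos of its own stage (0 to 16) and within the range of those of E2.75 (10.1 to 21.5). The share of reads that did not lie wholly within the exons of a gene was 32.3% to 43.9% in null libraries. It was 21.2% to 27.9% in het and 21% to 33.4% in wild-type libraries. Spike-in (ERCC) reads had medians of 6.23%, 2.58% and 3.88% in the same order. All 10 listed markers of the preimplantation embryo were tested, and their summed level was 2560 to 4000 CPM in null, 2730 to 4100 in het and 2020 to 4850 in wild-type embryos. Single markers differed: against wild-type at E2.75, *Krt8*, *Gata6* and *Klf5* were called higher and *Tead4* lower in null embryos, and *Krt18* was called lower against het (−2.95 with stages merged). Of the 10 listed markers of cumulus or granulosa cells, *Inha*, *Cyp11a1* and *Ptx3* were at 0 in all embryos, and the summed level of 205 to 460 CPM in null, 149 to 402 in het and 106 to 325 in wild-type embryos was mostly *Nr5a2*, which embryos also express, with *Amhr2* next. The summed level of 10 maternal oocyte transcripts was 19.2 to 144 CPM in null, 11.3 to 71.3 in het and 13.1 to 112 in wild-type embryos, and 1 of them, *Omt2a*, was called higher in null than in het embryos (2.60). The part of these differences between libraries in the results was not tested. In whole embryos, fewer cells of a type and less RNA per cell cannot be told apart.

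**Figure D1:**
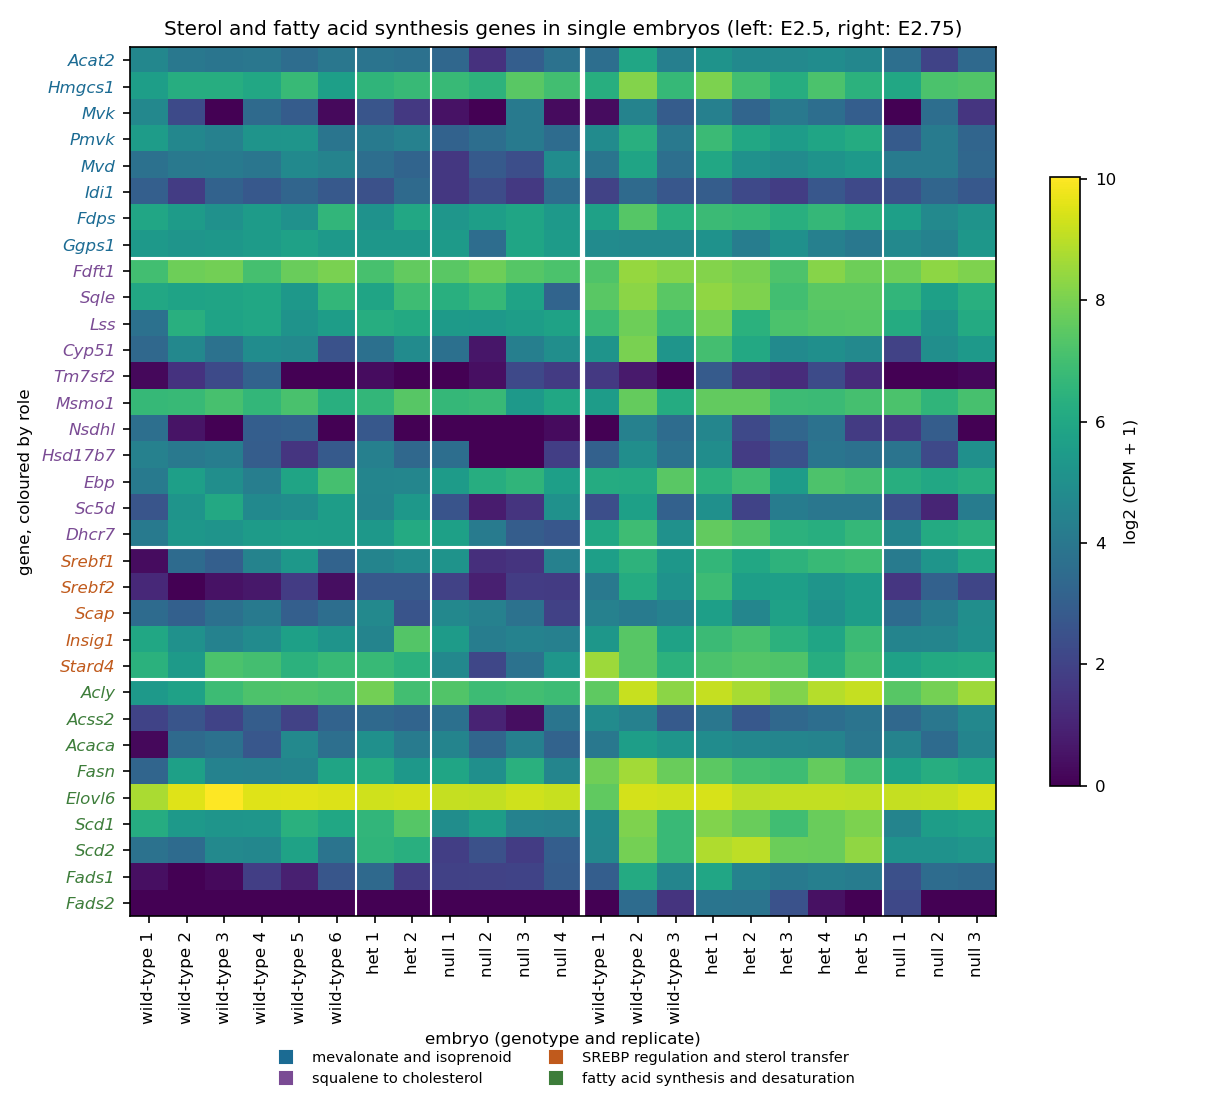
Levels of the 33 genes (rows, coloured by role) in the 23 embryos (columns, E2.5 left of the thick white line and E2.75 right of it), as log2 of CPM + 1. *Elovl6* was among the brightest rows, and *Srebf2* was dark in the E2.5 embryos and in the 3 null embryos at E2.75.

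With stages merged by genotype, 28 of the 32 genes tested had a lower fitted level in null than in het embryos, and 10 of them passed both thresholds, an edgeR adjusted p below 0.1 together with a change of more than 1 on the log2 scale. These 10 were *Scd2*, *Srebf2*, *Scd1*, *Pmvk*, *Insig1*, *Stard4*, *Acat2*, *Dhcr7*, *Sqle* and *Lss*. Over all 13415 genes tested, 276 (2.06%) were called lower, and 493 (3.67%) higher, with no member among the latter. Scaled to the spike-ins, which moved the median of all genes to −1.08, 25 of the 32 and 4487 of all genes were called lower and 289 higher. *Fads2* had too few counts to be tested. The median log2 fold change of the 32 genes was −1.21, beside 0.02 over all genes tested. By role, 3 of 5 genes of SREBP regulation and sterol transfer passed (median −1.68), 2 of 8 mevalonate genes (median −1.08), 3 of 11 genes from squalene to cholesterol (median −1.21) and 2 of 8 tested genes of fatty acid synthesis (median −1.12). The null embryos were 4 of E2.5 and 3 of E2.75 and the het embryos 2 and 5, so this comparison also carries stage. With stage as a covariate 6 of the 10 passed, and *Srebf2*, *Acat2*, *Sqle* and *Lss* did not. Without E2.75 het replicate 1 there were 5, and without E2.75 het replicate 4 or E2.5 null replicate 2 there were 6.

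Against wild-type embryos, 29 of the 32 genes tested had a lower fitted level in null embryos, and 4 passed both thresholds: *Stard4*, *Pmvk*, *Acat2* and *Scd1*. Over all genes tested 213 (1.59%) were called lower and 491 (3.66%) higher, with no member among the latter. The median log2 fold change of the 32 genes was −0.72, beside −0.02 over all genes. This comparison shares its null embryos with the comparison against het embryos, so the pair of results is not independent. Without E2.5 null replicate 3, E2.75 wild-type replicate 2 or E2.75 wild-type replicate 3 there were 2 genes. Without the E2.5 library with the label wild-type replicate 6 there were 3.

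**Figure D2:**
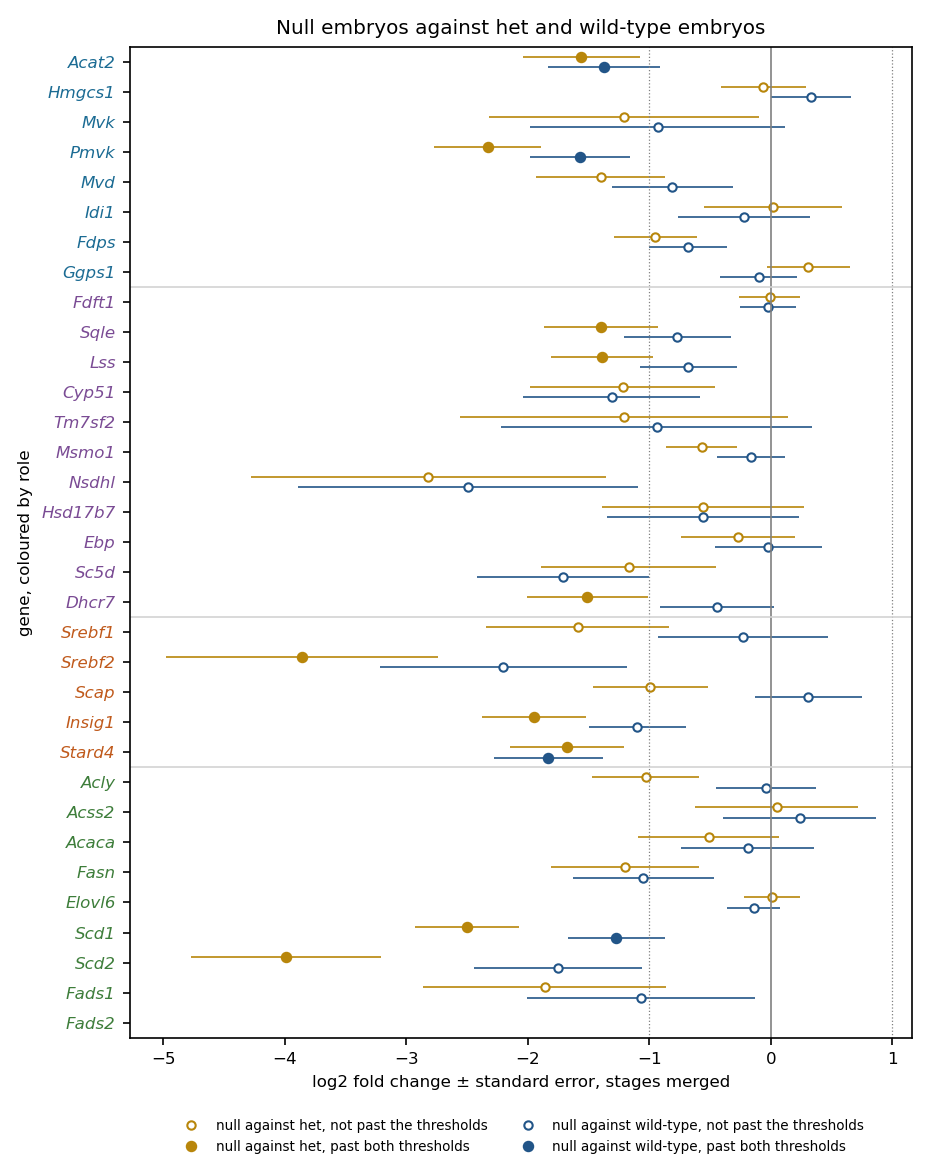
Log2 fold change (x axis) ± standard error of each tested gene (y axis, coloured by role) in null against het embryos and null against wild-type embryos, with stages merged. Filled points passed both thresholds, and all 14 filled points lie left of −1, marked by the dotted line.

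Of the mevalonate and isoprenoid genes, *Pmvk* and *Acat2* were the pair that passed both thresholds in null embryos. *Pmvk* encodes phosphomevalonate kinase, which adds the second phosphate to mevalonate. At E2.5 it was at 7.90, 11.2, 15.9 and 10.6 CPM in the null embryos, at 16.2 and 20.3 in the het embryos and between 13.7 and 45.3 (median 29.5) in the wild-type embryos. At E2.75 its level stood at 6.41, 16.9 and 8.72 CPM in the null embryos, at 113, 63.6, 45.1, 58.0 and 71.8 in the het embryos and at 27.4, 78.8 and 15.6 in the wild-type embryos. Every null embryo lay below every het embryo of its stage, with an overlap between null and wild-type embryos in both stages. The log2 fold change of *Pmvk* was −2.33 ± 0.44 (SE) against het and −1.57 ± 0.41 against wild-type (edgeR adjusted p = 0.00235 and 0.028).

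*Acat2* encodes a cytosolic acetyl-CoA acetyltransferase that joins acetyl-CoA units at the head of the pathway. At E2.5 it was at 9.15, 1.70, 7.02 and 12.9 CPM in the null embryos, at 13.6 and 12.2 in the het embryos and between 10.9 and 24.0 (median 14.7) in the wild-type embryos. In the E2.75 embryos, the level stood at 11.8, 3.08 and 9.83 CPM in the null embryos, between 24.0 and 34.5 in the 5 het embryos and at 11.2, 60.8 and 19.3 in the wild-type embryos. The null and het embryos did not overlap at E2.75, and at E2.5 the highest null embryo lay between the 2 het embryos. Its log2 fold change was −1.56 ± 0.48 against het and −1.37 ± 0.46 against wild-type (edgeR adjusted p = 0.0668 and 0.0982). The first call was lost without E2.5 null replicate 2, E2.75 het replicate 1 or E2.75 het replicate 4 (adjusted p from 0.111 to 0.134), and the second in 12 of 16 fits with a single embryo removed.

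*Hmgcs1*, the cytosolic HMG-CoA synthase and the gene whose promoter holds the SRE letters, passed in neither comparison. It was at 106, 87.3, 174 and 127 CPM in the null embryos of E2.5, at 93.5 and 108 in the het embryos and between 47.9 and 106 (median 69.6) in the wild-type embryos. At E2.75 it was at 64.1, 146 and 155 CPM in the null embryos, between 74.6 and 262 (median 126) in the het embryos and at 76.4, 283 and 103 in the wild-type embryos. The genotypes overlapped at both stages. The log2 fold change of *Hmgcs1* was −0.06 ± 0.35 against het, with a sign that turned without E2.75 het replicate 1 (0.21) or with stage as a covariate (0.15). Scaled to the spike-ins it was −1.16 and passed (edgeR adjusted p = 0.0879), beside a median of −1.08 over all genes. The value was 0.33 ± 0.33 against wild-type, which turned to −0.15 when libraries were scaled to the spike-ins. The kinase *Mvk* (−1.21 ± 1.11 against het) and the decarboxylase *Mvd* (−1.40 ± 0.53) had lower fitted levels that did not pass, and *Mvk* had a range of 0 to 24.4 CPM within the wild-type embryos alone. *Fdps*, which makes farnesyl pyrophosphate, was at −0.95 ± 0.34. *Idi1*, the isomerase of isopentenyl pyrophosphate (0.02 ± 0.57), and *Ggps1*, which makes geranylgeranyl pyrophosphate (0.31 ± 0.34), had fitted levels that were slightly higher in null embryos and did not pass. *Fdps* shares 26.7% of its exonic bases with *Gm43738* on the same strand, and reads there could not be assigned to either gene in the counting used.

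Of the genes from squalene to cholesterol, *Sqle*, *Lss* and *Dhcr7* passed both thresholds against het embryos and none did against wild-type embryos. *Sqle* encodes squalene epoxidase, a rate-limiting enzyme of cholesterol synthesis. At E2.5 it was at 79.3, 104, 55.0 and 8.46 CPM in the null embryos, at 56.5 and 118 in the het embryos and between 39.1 and 98.2 (median 59.5) in the wild-type embryos. At E2.75 its level stood at 97.1, 50.8 and 79.2 CPM in the null embryos, at 327, 271, 127, 173 and 174 in the het embryos and at 177, 310 and 174 in the wild-type embryos. The genotypes overlapped at E2.5, with null replicate 4 far below the rest, whereas at E2.75 every null embryo lay below every other embryo. The merged log2 fold change of *Sqle* was −1.40 ± 0.47 against het (edgeR adjusted p = 0.0981), a call that was not made in 11 of 14 fits with a single embryo removed, and −0.77 ± 0.44 against wild-type.

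*Lss* encodes lanosterol synthase, which closes the sterol rings. It was at 42.7, 40.6, 47.0 and 53.6 CPM in the null embryos of E2.5, at 74.8 and 67.0 in the het embryos and between 12.5 and 79.1 (median 51.1) in the wild-type embryos. In the E2.75 embryos, the level stood at 71.5, 35.4 and 68.9 CPM in the null embryos, at 246, 84.7, 145, 161 and 166 in the het embryos and at 114, 226 and 114 in the wild-type embryos. The null embryos lay below the het embryos at both stages and below the wild-type embryos at E2.75. Its log2 fold change was −1.39 ± 0.42 against het (edgeR adjusted p = 0.0616) and −0.68 ± 0.40 against wild-type. The call against het was lost without any of E2.5 null replicates 2 and 4 and E2.75 het replicates 1, 4 and 5 (adjusted p from 0.101 to 0.151).

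*Dhcr7*, the enzyme of the last step to cholesterol in the Kandutsch-Russell branch, was at 50.5, 17.2, 6.72 and 5.64 CPM in the null embryos of E2.5 and at 39.2 and 68.7 in the het embryos. The wild-type embryos of that stage lay between 16.1 and 47.9 (median 41.6). At E2.75 *Dhcr7* was at 21.7, 69.8 and 80.8 CPM in the null embryos, between 78.0 and 193 (median 101) in the het embryos and at 61.0, 118 and 32.3 in the wild-type embryos. Null replicate 1 at E2.5 was the highest embryo of its stage but for a het embryo, so the groups overlapped. The log2 fold change was −1.51 ± 0.50 against het (edgeR adjusted p = 0.0942), a call lost in 9 of 14 fits with a single embryo removed, and −0.44 ± 0.47 against wild-type.

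The other 8 genes of this branch passed in neither comparison. *Fdft1*, the squalene synthase, was at −0.01 ± 0.25 against het and −0.02 ± 0.23 against wild-type, and shares 18.3% of its exonic bases with *Ctsb* on the other strand, which unstranded counting cannot separate. *Msmo1* (−0.57 ± 0.29), *Ebp* (−0.27 ± 0.47) and *Hsd17b7* (−0.56 ± 0.83), enzymes of demethylation, isomerization and ketone reduction, and the demethylase *Cyp51* (−1.22 ± 0.76) and the desaturase *Sc5d* (−1.17 ± 0.72) all had negative log2 fold changes against het. *Nsdhl*, a sterol dehydrogenase, was at 0 in 4 of 7 null, 1 of 7 het and 3 of 9 wild-type embryos, and *Tm7sf2*, which reduces a double bond of the sterol ring, in 3, 1 and 3. Both varied widely within a genotype, with *Nsdhl* at 0 to 20.4 CPM and *Tm7sf2* at 0 to 7.79 CPM in wild-type embryos. For *Nsdhl* the fitted log2 difference was −2.82 ± 1.46 against het and −2.49 ± 1.40 against wild-type, and that of *Tm7sf2* −1.21 ± 1.35 and −0.94 ± 1.28, with errors too wide to pass. At E2.5 the null embryos had 0, 0, 0 and 1 counts of *Nsdhl*, and at E2.75 they had 0, 0 and 1 counts of *Tm7sf2*, so that no fold is given within those stages.

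Of the genes of SREBP regulation and sterol transfer, *Srebf2*, *Insig1* and *Stard4* passed both thresholds against het embryos, and *Stard4* also against wild-type embryos. At E2.5 *Srebf2* was at 2.91, 0.850, 2.44 and 2.35 CPM in the null embryos, at 6.02 and 6.03 in the het embryos and between 0 and 2.47 (median 0.484) in the wild-type embryos. At E2.75 it was at 1.97, 7.69 and 3.32 CPM in the null embryos, at 116, 48.5, 49.1, 36.5 and 45.4 in the het embryos and at 15.4, 70.3 and 33.8 in the wild-type embryos. At E2.75 the 3 null embryos lay near the levels of E2.5 and below every other embryo of their stage. Their levels rest on only 4, 15 and 24 counts, and those of the E2.5 embryos of all genotypes on 0 to 65. The merged log2 fold change of *Srebf2* was −3.86 ± 1.12 against het (edgeR adjusted p = 0.0489) and −2.20 ± 1.02 against wild-type, which did not pass. The latter was −1.16 without E2.75 wild-type replicate 2 and −0.38 with stage as a covariate. The call against het was lost without E2.75 het replicate 1 (adjusted p = 0.114) and with stage as a covariate (−1.96, adjusted p = 0.172).

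*Insig1*, the sterol sensor that retains SCAP and itself an SREBP target, was at 44.3, 18.0, 20.8 and 19.7 CPM in the null embryos of E2.5, at 22.2 and 162 in the het embryos and between 20.6 and 61.8 (median 33.7) in the wild-type embryos. At E2.75 its level stood at 21.7, 22.6 and 31.1 CPM in the null embryos, at 114, 137, 85.2, 59.2 and 113 in the het embryos and at 38.9, 171 and 53.4 in the wild-type embryos. The groups overlapped at E2.5, and at E2.75 the null embryos lay below all others. Its log2 fold change was −1.95 ± 0.43 against het (edgeR adjusted p = 0.00808) and −1.10 ± 0.40 against wild-type (adjusted p = 0.141).

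*Stard4* encodes a cytosolic carrier of sterol between membranes. It was at 24.8, 3.4, 12.8 and 37.1 CPM in the null embryos of E2.5, at 107 and 84.9 in the het embryos and between 42.8 and 145 (median 97.3) in the wild-type embryos. In the E2.75 embryos, the level stood at 52.3, 66.7 and 70.7 CPM in the null embryos, at 144, 162, 151, 74.3 and 133 in the het embryos and at 372, 172 and 86.7 in the wild-type embryos. Every null embryo lay below every other embryo of its stage, at both stages. The log2 fold change was −1.68 ± 0.47 against het and −1.83 ± 0.45 against wild-type (edgeR adjusted p = 0.0393 and 0.0186), and both calls stood with any single embryo removed.

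*Srebf1* did not pass. At E2.5 it was at 34.3, 1.53, 1.83 and 20.2 CPM in the null embryos, at 22.0 and 27.7 in the het embryos and between 0.245 and 39.8 (median 9.11) in the wild-type embryos. At E2.75 it was at 16.8, 36.9 and 63.3 CPM in the null embryos, at 98.3, 63.6, 89.0, 108 and 119 in the het embryos and at 49.0, 89.1 and 38.8 in the wild-type embryos. The null embryos of E2.75 lay below the het embryos, by a narrow margin for replicate 3, and overlapped the wild-type embryos. Its log2 fold change was −1.59 ± 0.75 against het (edgeR adjusted p = 0.271) and −0.23 ± 0.70 against wild-type, with a sign that turned without E2.75 wild-type replicate 2 (0.20). *Scap* was at −0.99 ± 0.47 against het and 0.31 ± 0.44 against wild-type.

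**Figure D3:**
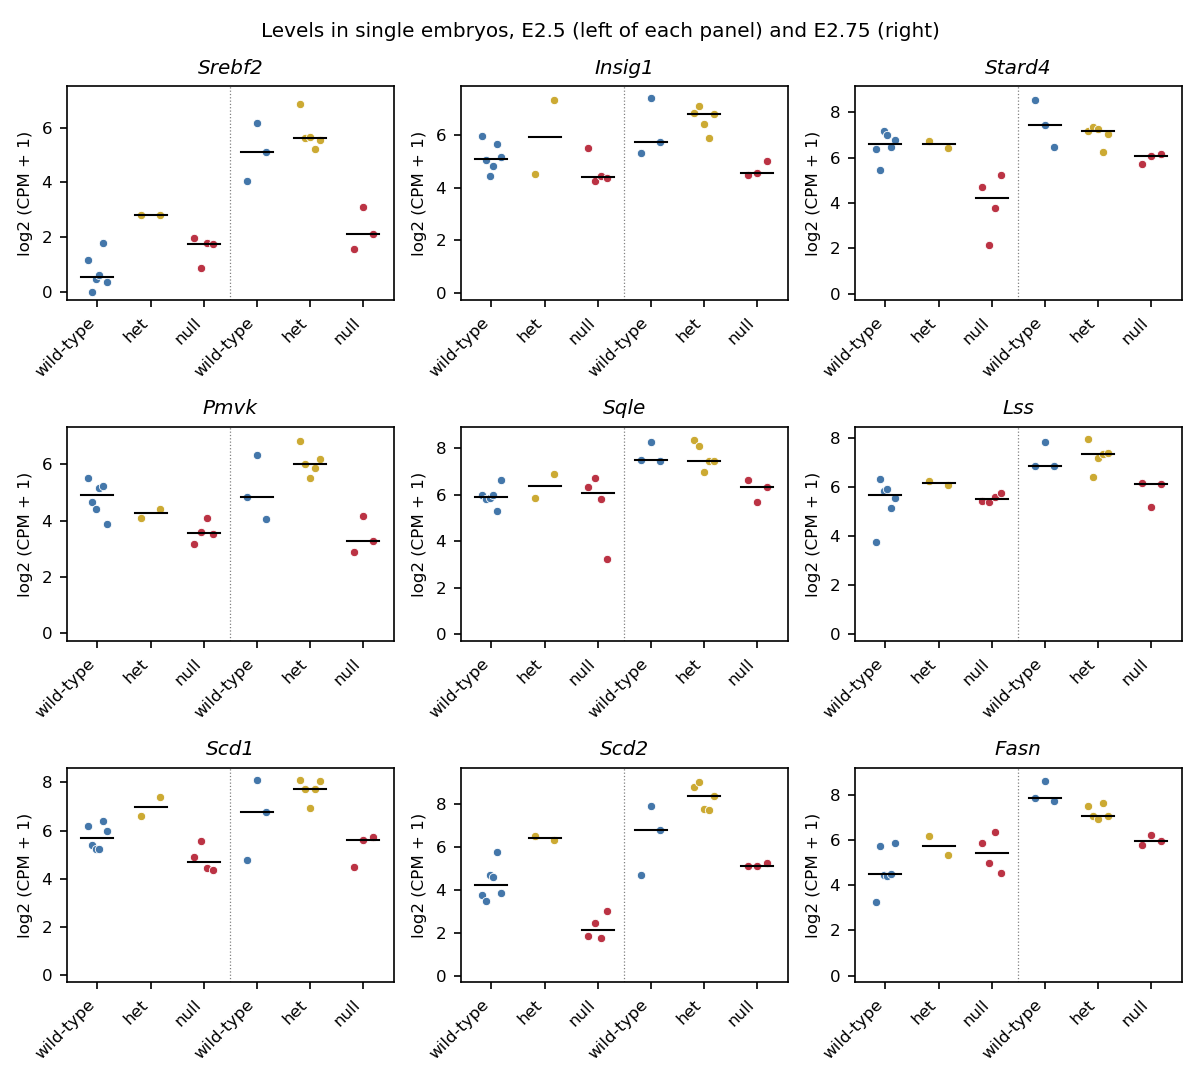
Levels of 9 of the genes in each embryo as log2 of CPM + 1 (y axis), by genotype, with E2.5 left and E2.75 right of the dotted line. Points are embryos and black lines medians. The 3 null embryos of E2.75 lie below all wild-type and het embryos of that stage for *Srebf2*, *Insig1*, *Stard4*, *Sqle*, *Lss* and *Fasn*.

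Of the genes of fatty acid synthesis and desaturation, the desaturases *Scd2* and *Scd1*, which place the first double bond into saturated fatty acids, had the largest differences against het embryos with stages merged. *Scd2* was at 2.60, 4.59, 2.44 and 7.05 CPM in the null embryos of E2.5, at 92.1 and 79.9 in the het embryos and between 10.3 and 54.0 (median 18.6) in the wild-type embryos. At E2.75 its level stood at 33.5, 33.9 and 37.8 CPM in the null embryos, at 452, 521, 218, 214 and 331 in the het embryos and at 24.8, 242 and 111 in the wild-type embryos. At E2.5 the null embryos lay below all others, and at E2.75 they lay below the het embryos and above 1 wild-type embryo. The log2 fold change of *Scd2* was −3.99 ± 0.78 against het (edgeR adjusted p = 0.00327) and −1.75 ± 0.69 against wild-type (adjusted p = 0.189), which passed with stage as a covariate (−2.17, adjusted p = 0.00144).

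*Scd1* was at 29.0, 46.9, 20.8 and 19.7 CPM in the null embryos of E2.5, at 96.8 and 166 in the het embryos and between 36.7 and 82.1 (median 51.1) in the wild-type embryos. In the E2.75 embryos, the level stood at 21.7, 47.2 and 52.2 CPM in the null embryos, at 275, 212, 122, 211 and 262 in the het embryos and at 26.4, 273 and 109 in the wild-type embryos. The null embryos lay below the het embryos at both stages and overlapped the wild-type embryos at both. Its log2 fold change was −2.50 ± 0.43 against het and −1.27 ± 0.40 against wild-type (edgeR adjusted p = 0.00119 and 0.0736). The call against wild-type was lost in 6 of 16 fits with a single embryo removed, with −0.78 and an adjusted p of 0.221 without E2.75 wild-type replicate 2.

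*Fasn*, the fatty acid synthase, was at 57.8, 30.8, 80.9 and 22.6 CPM in the null embryos of E2.5, at 70.5 and 39.7 in the het embryos and between 8.58 and 57.4 (median 21.5) in the wild-type embryos. At E2.75 it was at 53.7, 74.4 and 60.5 CPM in the null embryos, at 179, 134, 119, 198 and 134 in the het embryos and at 228, 391 and 213 in the wild-type embryos. The genotypes overlapped at E2.5, and at E2.75 they stood apart in the order null, het, wild-type without overlap. With stages merged the log2 fold change did not pass, at −1.20 ± 0.61 against het and −1.05 ± 0.58 against wild-type (edgeR adjusted p = 0.315 and 0.427).

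*Elovl6*, which lengthens palmitate, was the highest of the 33 genes per length in wild-type embryos, with a median of 112 CPM per kb of exon, and was at 0.01 ± 0.23 against het. *Acly*, which makes cytosolic acetyl-CoA from citrate, was at −1.03 ± 0.44 against het and −0.04 ± 0.41 against wild-type. *Acss2*, which makes it from acetate (0.05 ± 0.67 against het), and *Acaca*, the acetyl-CoA carboxylase (−0.51 ± 0.58), did not pass. Of the front-end desaturases, *Fads1* was at −1.86 ± 1.00 against het, and *Fads2* had 0 counts in all 12 embryos of E2.5 and in 4 of the 11 of E2.75.

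The wild-type embryos show how these genes change between the stages. Of the 32 genes tested, 27 had a higher fitted level at E2.75 than at E2.5, and 8 passed both thresholds, each higher at E2.75: *Srebf2* (log2 fold change 5.62 ± 0.96), *Fads1* (4.42 ± 1.17), *Fasn* (3.27 ± 0.49), *Cyp51* (2.71 ± 0.67), *Scd2* (2.52 ± 0.63), *Sqle* (1.89 ± 0.31), *Acly* (1.79 ± 0.44) and *Lss* (1.73 ± 0.46). Over all 13272 genes tested, 402 (3.03%) were called higher and 495 (3.73%) lower, with no member among the latter. The median log2 fold change was 1.13, beside 0.03 over all genes tested. By role, the median was 1.85 for fatty acid synthesis and desaturation, 1.29 for SREBP regulation and sterol transfer, 0.95 from squalene to cholesterol and 0.64 for the mevalonate steps. Only 3 wild-type embryos stand for E2.75, of which replicate 2 was the highest for each of the 8 genes that passed. *Cyp51*, for instance, was at 35.9, 255 and 36.7 CPM in these embryos, beside 4.76 to 28.4 at E2.5. Without replicate 2, or without replicate 3, 3 genes passed. *Srebf2* and *Fads1* at E2.5 rested on few reads in wild-type embryos, each with 1 of 6 at 0, so their folds carry wide errors.

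Within E2.5, 2 of the 32 genes tested passed in null against wild-type embryos, both lower: *Scd2* (−2.51) and *Stard4* (−2.38). Over all 15904 genes tested 73 (0.459%) were called lower and 216 (1.36%) higher, with no member among the latter. The median log2 fold change of the genes was −0.31, beside −0.05 over all genes. The adjusted p of both lay close to the threshold (edgeR, 0.0664 for *Scd2* and 0.0646 for *Stard4*), although every null embryo lay below every wild-type and het embryo for both genes, as in 0.817% of all genes tested. No gene passed without any of wild-type replicates 3, 4 and 5 and null replicates 1 and 3, 1 passed without null replicate 2 or 4, and both passed without the E2.5 library with the label wild-type replicate 6.

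Within E2.75, 9 of the 33 genes passed in null against het embryos, all lower: *Srebf2* (−3.84), *Scd2* (−3.34), *Pmvk* (−2.77), *Scd1* (−2.45), *Insig1* (−2.04), *Sqle* (−1.53), *Lss* (−1.48), *Fdps* (−1.43) and *Fasn* (−1.32). Over all 14442 genes tested 333 (2.31%) were called lower and 363 (2.51%) higher, the latter without a member. More members passed when scaled to the spike-ins (19, beside 2164 of all genes lower and 330 higher), without the filter on low counts (16, beside 654 and 667) and by DESeq2 (14, beside 722 and 956). Null against wild-type embryos of the same fit gave 8 genes, all lower: *Srebf2* (−3.30), *Fasn* (−2.19), *Pmvk* (−1.99), *Insig1* (−1.84), *Stard4* (−1.77), *Sqle* (−1.58), *Fdps* (−1.51) and *Lss* (−1.41). There, 340 of all genes (2.35%) were called lower and 316 (2.19%) higher, again without a member. Here 13 members passed without the filter on low counts, beside 640 of all genes lower and 482 higher. The median log2 fold change was −1.32 against het and −1.41 against wild-type embryos, beside −0.04 and −0.01 over all genes tested.

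Those 3 null embryos include the shallowest libraries of the series. Without null replicates 1 and 2, which leaves 1 null embryo whose spread is taken from the other groups, no gene passed against het and 1 against wild-type embryos, with 39 and 33 of all genes then called higher and 103 and 115 lower. Without null replicate 2 alone there were 4 against het. Against wild-type embryos there were 4 without null replicate 1, 2 without null replicate 2, 2 without null replicate 3 and 3 without wild-type replicate 2.

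In 7 of the 33 genes every null embryo of E2.75 lay below every wild-type and every het embryo of that stage: *Fasn*, *Fdps*, *Insig1*, *Lss*, *Sqle*, *Srebf2* and *Stard4*. Of all 14442 genes tested, 3.34% stood so below both groups, and 10.6% stood below the wild-type embryos alone, where the same 7 genes were found. The share below the het embryos alone was not computed at either stage, so the separations from het embryos described above have no share beside them. None of the genes tested among the 33 had every null embryo above every wild-type embryo at either stage, which held for 3.4% of all genes tested at E2.5 and 12.5% at E2.75.

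**Figure D4:**
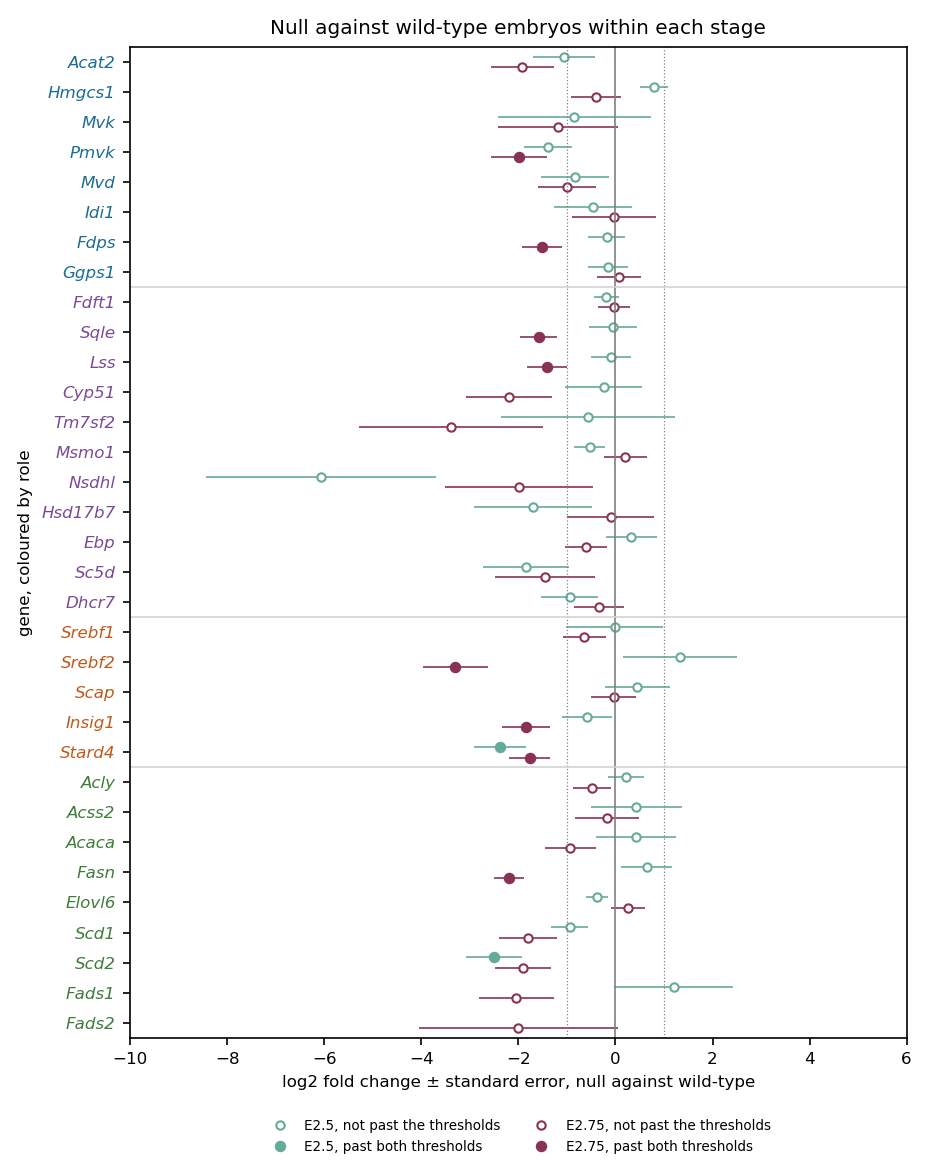
Log2 fold change (x axis) ± standard error of null against wild-type embryos for each gene (y axis, coloured by role), within E2.5 and within E2.75. Filled points passed both thresholds. *Stard4* is filled at both stages. The points of *Nsdhl* at E2.5 and *Tm7sf2* at E2.75 rest on 0 or 1 counts in each null embryo. *Srebf2*, *Fasn*, *Fads1*, *Hmgcs1*, *Acaca*, *Ebp*, *Acly*, *Acss2* and *Scap* lie right of 0 at E2.5 and left of it at E2.75.

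The difference between the stages in null against wild-type embryos was tested as an interaction. None of the 33 genes passed, nor did any of the 15582 genes tested (0% called higher and 0% lower), although an unadjusted p below 0.05 was found for 4 of the 33 and 1365 of all genes. By DESeq2 the calls were 2 of the 33, and over all genes 174 higher and 105 lower. The largest interaction terms with an opposite sign at the 2 stages were those of *Srebf2* (1.33 at E2.5 and −3.30 at E2.75), *Fads1* (1.20 and −2.04) and *Fasn* (0.64 and −2.19). At this number of embryos an effect that differs between the stages was not shown for any of these genes.

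None of the 32 genes passed in het against wild-type embryos. With stages merged, 0% of the 13415 genes tested were called higher and 0% lower, an unadjusted p below 0.05 was found for 6 of the 32 and 934 of all genes, and by DESeq2 37 genes were called higher and 28 lower, none of them a member. The fitted level was nevertheless higher in het embryos for 24 of the 32, with a median log2 fold change of 0.33 beside −0.03 over all genes. *Scd2* (2.24), *Srebf2* (1.66), *Srebf1* (1.36), *Scap* (1.30) and *Scd1* (1.22) had the largest differences. The wild-type embryos were 6 of E2.5 and 3 of E2.75, and the het embryos 2 and 5, so stage goes with genotype here too.

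The other 49 listed genes of these pathways are not among the 33. Of the 44 tested with stages merged, 2 passed in null against het embryos, both lower, among them *Elovl5*, an elongase of polyunsaturated fatty acids (−1.34 ± 0.40). In null against wild-type embryos 1 passed, *Hacd3*, a dehydratase of fatty acid elongation (−1.65 ± 0.44). Within E2.75, 4 of 45 tested passed against het embryos, among them *Acat1*, *Elovl1* and *Elovl7*, and 4 against wild-type embryos, among them *Acat1* and *Elovl1*, all lower. Within E2.5, *Mbtps2* was called higher against wild-type embryos (1.46 ± 0.39). These within-stage genes were named after their values were seen, and the shares of all genes called are those of the same comparisons. With stages merged, the median log2 fold changes of the 44 were −0.66 and −0.51. By group, the 6 tested genes of LXR and sterol export or esterification had medians of 0.18 and 0.18, the 22 of fatty acid synthesis and elongation −0.79 and −0.83, the 8 of sterol synthesis −0.71 and −0.61 and the 8 of SREBP regulation and sterol uptake −0.95 and −0.17.

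The POU6F1 peaks give a readout that took no part in the choice of these genes, in other cells. A gene was counted as carrying a peak where a peak against the IgG control, found in replicate 1 and overlapping one of replicate 2, lay within 1 kb of an annotated transcription start site (TSS). This held for 30 of the 33 genes (90.9%), beside 65.7% of the 13399 genes tested in the embryos that have an annotation and 73.9% of the 11213 protein-coding ones. No test of this difference was made. The labels list only 1 anti-IgG library, so both replicates appear to share that control. All 8 mevalonate genes and all 5 of SREBP regulation and sterol transfer carried a peak, as did 10 of 11 from squalene to cholesterol and 7 of 9 of fatty acid synthesis and desaturation. The genes without one were *Ebp*, *Scd1* and *Fads1*. *Ebp* and *Scd1* had a peak in replicate 1 alone, and the peaks of *Fads1* in the replicates did not overlap.

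The strongest enrichments over control in replicate 1 stood at *Dhcr7* (32.4-fold, and 9.89-fold in replicate 2), *Scap* (31.0 and 15.3), *Insig1* (29.7 and 10.5), *Acaca* (29.6 and 9.14), *Acly* (29.4 and 10.2), *Srebf2* (29.1 and 7.33) and *Lss* (28.1 and 13.9). Over all tested genes with a peak the medians were 16.6-fold and 6.57-fold. The *Srebf2* summit lay 17 bp downstream of its TSS, in the peak at chr15:82146841-82147953. The *Lss* summit lay 91 bp upstream, in the peak at chr10:76530996-76532032, and the *Hmgcs1* summit 111 bp upstream, in the peak at chr13:119690023-119690848. *Pmvk* (12.6 and 3.10) and *Fdps* (6.37 and 3.28) carried the weakest peaks by replicate 2. The genes that passed in null against het embryos were found with strong peaks (*Insig1*, *Srebf2*), with a weak peak (*Pmvk*) and without a peak of both replicates (*Scd1*).

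With the peak lists called against mCherry-only cells, 12 of the 33 genes (36.4%) carried a peak of both replicates. The shares were 24.0% of all genes tested and 27.1% of the protein-coding ones. Replicate 1 alone, with 31348 peaks in its list, had a peak at all 33, and replicate 2, with 3630 peaks, at 12. These 12 were *Acaca*, *Acly*, *Acss2*, *Dhcr7*, *Fdps*, *Lss*, *Mvd*, *Mvk*, *Scd2*, *Sqle*, *Srebf1* and *Srebf2*. With a −log10 q of at least 10 in both replicates 14 carried a peak (42.4%), beside 29.1% of all genes tested and 32.8% of the protein-coding ones. The labels also list only 1 anti-mCherry library of mCherry-only cells for both replicates. The depth behind the peak lists is unknown.

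**Figure D5:**
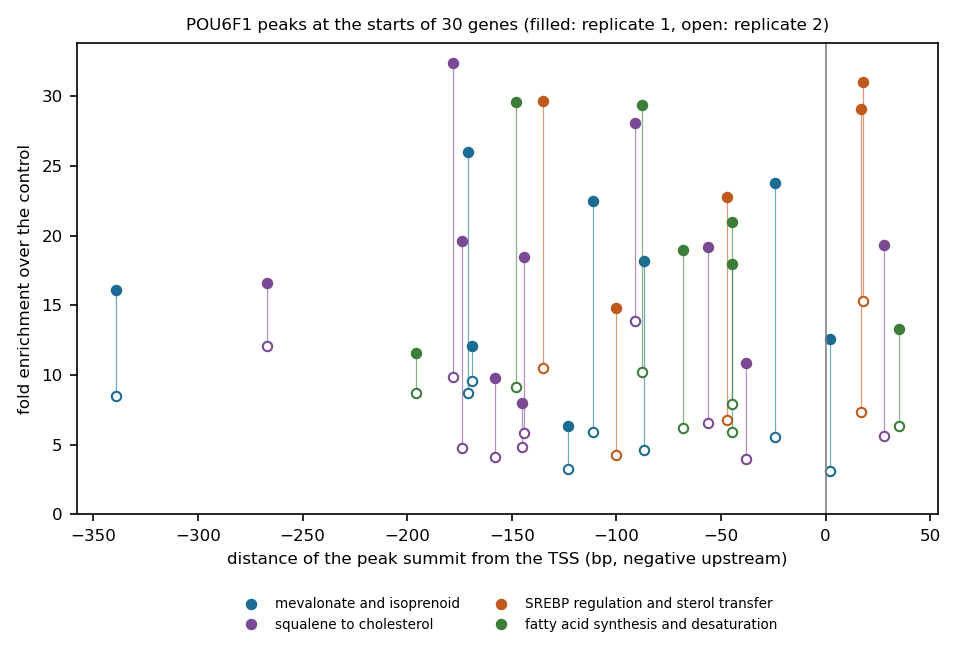
Distance of the POU6F1 peak summit from the nearest TSS of the gene (x axis, in bp, negative upstream) and fold enrichment over the IgG control (y axis) for the 30 genes with a peak, in replicate 1 (filled) and replicate 2 (open, joined by a line). Summits lay between 339 bp upstream and 35 bp downstream, and every enrichment was lower in replicate 2.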

How the data were processed

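Poly(A) RNA of 23 single embryos and POU6F1 ChIP-seq of 2 replicates were analysed. The authors deposited raw counts per gene, made with Cutadapt 3.4 for trimming, STAR 2.7.8a for alignment (GRCm38) and HTSeq 0.11.4 for counting without regard to strand. The deposited peak lists, 2 per replicate, were made by the authors with Bowtie2 2.4.4 and MACS2 2.2.7.1. In these deposited lists each peak has a ratio of signal to control (fold enrichment), a −log10 p and a −log10 q. They also hold a score derived by the authors from q, which was not needed.

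The 92 spike-ins and 5 summary lines were kept out of library sizes and tests. Counts were tested with edgeR 4.0.16 (quasi-likelihood, TMM, filterByExpr, Benjamini-Hochberg adjustment over all genes tested) in R 4.3.3, after testing the code on simulated data. Calls were made where the adjusted p was below 0.1 and the log2 fold change exceeded 1 in size, thresholds taken from the study. Merged fits held all 23 embryos, within-stage fits all embryos of that stage, and the stage fit wild-type embryos only. Alternatives were DESeq2 1.42.0, other scalings, no filter, a replicate block, stage as covariate, only the genotypes compared and leaving out each embryo. The members and lists were chosen with earlier results of these data known. Every member is named, and values per embryo are given for those called in a merged comparison and for *Hmgcs1*, *Srebf1* and *Fasn*. Of the other pathway genes, those called there are named, except for items that are not reported here. Samples were grouped by their labels. The 38 pairs of libraries of the same group differed by more than sampling noise (chi-square per gene 23.4 to 184). A peak was assigned to a gene within 1 kb of a TSS, with at least 1 bp shared between the replicates.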

Additional observations from a re-analysis of the deposited data

Results flagged for a closer look

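Of 97 groups of 4 to 10 embryos tested gene by gene, 12 held an embryo that stood far from the others in CPM, over 11 genes. Chance flags about 1 in 20 groups where values follow a normal distribution. The CPM were untransformed and all 12 flagged values stood high, so that rate may not hold here. E2.5 null replicate 4 stood high in 4 of the flagged groups, with *Fads1* at 6.58, *Mvd* at 28.2, *Sc5d* at 32.7 and *Nsdhl* at 0.235. The last is 1 count beside 0 in the other null embryos, within the 3 counts that a count of 0 allows, and shows no difference. E2.75 het replicate 1 stood high in 3, with *Srebf2* at 116, *Fads1* at 60.4 and *Elovl6* at 682. In the other null embryos of E2.5, *Insig1* was at 44.3 in replicate 1 and *Mvk* at 16.5 in replicate 3. In wild-type embryos of E2.5, *Acat2* was at 24.0 in replicate 1, *Scd2* at 54.0 in replicate 5 and *Ebp* at 132 in replicate 6, the library with the low *Dis3* level.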

How the results depend on the processing

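Across alternatives, 114 counts of genes called stayed within 1.5 times the reported count and 39 did not, and 514 of the log2 fold changes kept their direction and call, 68 lost a call, 12 gained one and 4 changed sign. The calls of *Pmvk*, *Scd1*, *Scd2* and *Stard4* against het and of *Pmvk* and *Stard4* against wild-type stood in every alternative run. Scaling to the spike-ins gave 25 genes in null against het (4487 of all genes lower, 289 higher), 19 in null against het at E2.75 (2164, 330) and 20 between stages in wild-type (38, 1861), with medians of all genes at −1.08, −0.74 and 0.92, and turned *Hmgcs1* against wild-type to −0.15. Without the filter on low counts there were 7 genes in null against wild-type (737 of all genes lower, 2672 higher), 16 in null against het at E2.75 (654, 667), 13 in null against wild-type at E2.75 (640, 482) and 1 in the interaction (16, 21). DESeq2 gave 4 at E2.5 (479, 781), 14 in null against het at E2.75 (722, 956) and 2 in the interaction (105, 174). Stage as a covariate gave 6 in null against het (284, 486) and turned *Hmgcs1* there to 0.15, and fitting only the genotypes compared gave 2 in null against wild-type (125, 389). The cause of these differences was not tested.

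The replicate block gave 4 genes in null against het (116 of all genes lower, 216 higher), 1 in null against wild-type at E2.5 (12, 29), 3 in null against het at E2.75 (52, 41), 2 in null against wild-type at E2.75 (104, 102) and 5 between stages in wild-type (165, 167). The numbers do not pair the embryos: of 17 same-numbered pairs, 0 had a correlation of deviations over 0.1 (−0.105 to 0.085).

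Leaving out 1 embryo at a time gave 5 to 11 genes in null against het, 2 to 4 in null against wild-type, 0 to 2 at E2.5, 4 to 10 in null against het at E2.75, 2 to 8 in null against wild-type at E2.75 and 3 to 10 between stages, and 0 in het against wild-type and in the interaction. *Hmgcs1* against het ranged from −0.17 to 0.21 and *Srebf1* against wild-type from −0.67 to 0.20. Without both shallow null libraries, 0 genes remained called against het and 1 against wild-type at E2.75. That setting, the null against wild-type fit at E2.75 and leaving embryos out of the interaction were chosen after seeing the data. Of the genes with a POU6F1 peak, 14 had a −log10 q of at least 10 in both replicates. In the lists against mCherry 12 carried a peak of both replicates, while other distances and a 50% overlap gave 30. *Nsdhl*, *Tm7sf2* and *Fads2* were at 0 in several embryos, deep libraries included.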
